A study of Homo sapiens with 6 samples.

Results

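Messenger RNA is taken apart by the RNA exosome, by deadenylases and decapping enzymes, by nonsense-mediated decay (NMD) and by proteins that bind AU-rich elements. A list of 46 genes for these factors was matched by gene symbol in the GENCODE 44 annotation, out of 62252 genes with transcripts in the deposited tables. All 46 genes were found, with 545 annotated transcripts, and all 46 had a mean count above 10, the limit for testing.

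K562 cells come from a human leukemia and carry erythroid features. Libraries of polyA RNA were made from 3 −Dox and 3 +Dox samples. Both groups derive from K562flox, a single-cell clone in which Cas9 and a donor plasmid placed lox sites and blasticidin resistance at the AAVS1 locus. Both also carry, after recombinase-mediated cassette exchange, a tet-inducible Flag-PCBP1 cassette with puromycin resistance, kept as a polyclonal line under puromycin. The +Dox cells received doxycycline (Dox), which switches the cassette on, and the −Dox cells did not. Effects of Dox itself and of Flag-PCBP1 cannot be told apart, and the dose and time of Dox for these libraries are not given in the sources used here. The labels do not say whether replicates were separate cultures, so the p-values measure the spread between these libraries. Summed over transcripts, a library held between 70905656 (+Dox replicate 1) and 84177316 (−Dox replicate 1) estimated counts.

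PCBP1, the induced gene, checks the labels. Its level in CPM (counts scaled to the library size, with TMM factors) was 247.5, 269.5 and 266.9 in −Dox and 1029.6, 936.4 and 1037.3 in +Dox. The log2 fold change was 1.94 ± 0.06 (SE) with an adjusted p of 5.22e-10, and a gene count holds endogenous and Flag-tagged PCBP1 together. Of the erythroid markers reported here, HBG1, HBE1, GATA1, TAL1 and KLF1 were detected, from 57.7 CPM for TAL1 to 2307 CPM for HBG1 in −Dox. Of these KLF1 and TAL1 rose, by 0.46 and 0.44 on the log2 scale. Summed over all 6 erythroid markers examined, the level per transcript length (TPM) was lower in +Dox, without overlap. It was 10365 ± 326 in −Dox and 9703 ± 114 in +Dox (SD, n = 3). This sum is weighted to the most abundant marker, which averaged 6027 TPM over the 6 libraries. By gene, 4 of the 6 log2 fold changes in CPM lay above 0 and 2 below, with a median of 0.28. The lymphoid, myeloid, epithelial and fibroblast markers CD3E, MS4A1, MPO, ELANE, CD14, KRT5, CDH1, COL1A2 and DCN were at or near 0 (at most 0.12 CPM in either group mean). LYZ, EPCAM, CD3D and COL1A1 were detected, and LYZ, a lysozyme of myeloid cells, fell from 143.9 to 104.1 CPM. Their part in the results below was not tested.

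Decay of most cytoplasmic mRNAs begins when the PAN2-PAN3 and CCR4-NOT complexes shorten the poly(A) tail. The body of the mRNA is then degraded either from its 3′ end by the exosome or, after DCP2 removes the cap, from its 5′ end by XRN1. In the nucleus the exosome trims and destroys transcripts handed over by helicase adaptors such as the NEXT complex, and NMD removes mRNAs with premature stop codons. PCBP1 is a poly(C)-binding protein with roles in splicing and mRNA stability.

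Of the 46 genes, 11 (23.9%) passed an adjusted p under 0.05 in edgeR's quasi-likelihood test, against 15.8% of all 21045 genes tested. The 4 that rose were PAN2, XRN1, CNOT8 and CNOT10 (8.16% of all genes tested rose), and the 7 that fell were ZFP36L2, EXOSC4, EXOSC3, EXOSC7, EDC4, DIS3 and EXOSC6 (7.68% of all genes tested fell). Abundant genes were called more often. Among the 10821 genes with a mean CPM at or above that of the least abundant member (4.81 CPM), 25.6% were called, 12.8% as higher and 12.9% as lower. Of the protein-coding ones 26.2% were called. The share of members called was near these shares. This set has the same floor as the members but was not matched to them on abundance. No member reached the study's further limit of an absolute log2 fold change above 1, which 1.46% of all genes tested passed. The median log2 fold change of the 46 members was -0.03, beside 0.01 over all genes tested. The CPM values of the groups did not overlap for 18 of the 46 members. The same held for 33.2% of all genes tested and 44.5% of those at or above 4.81 CPM. All changes of members were small, the largest being a fall of 27.3% (ZFP36L2) and a rise of 31.7% (PAN2).

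**Figure D1:**
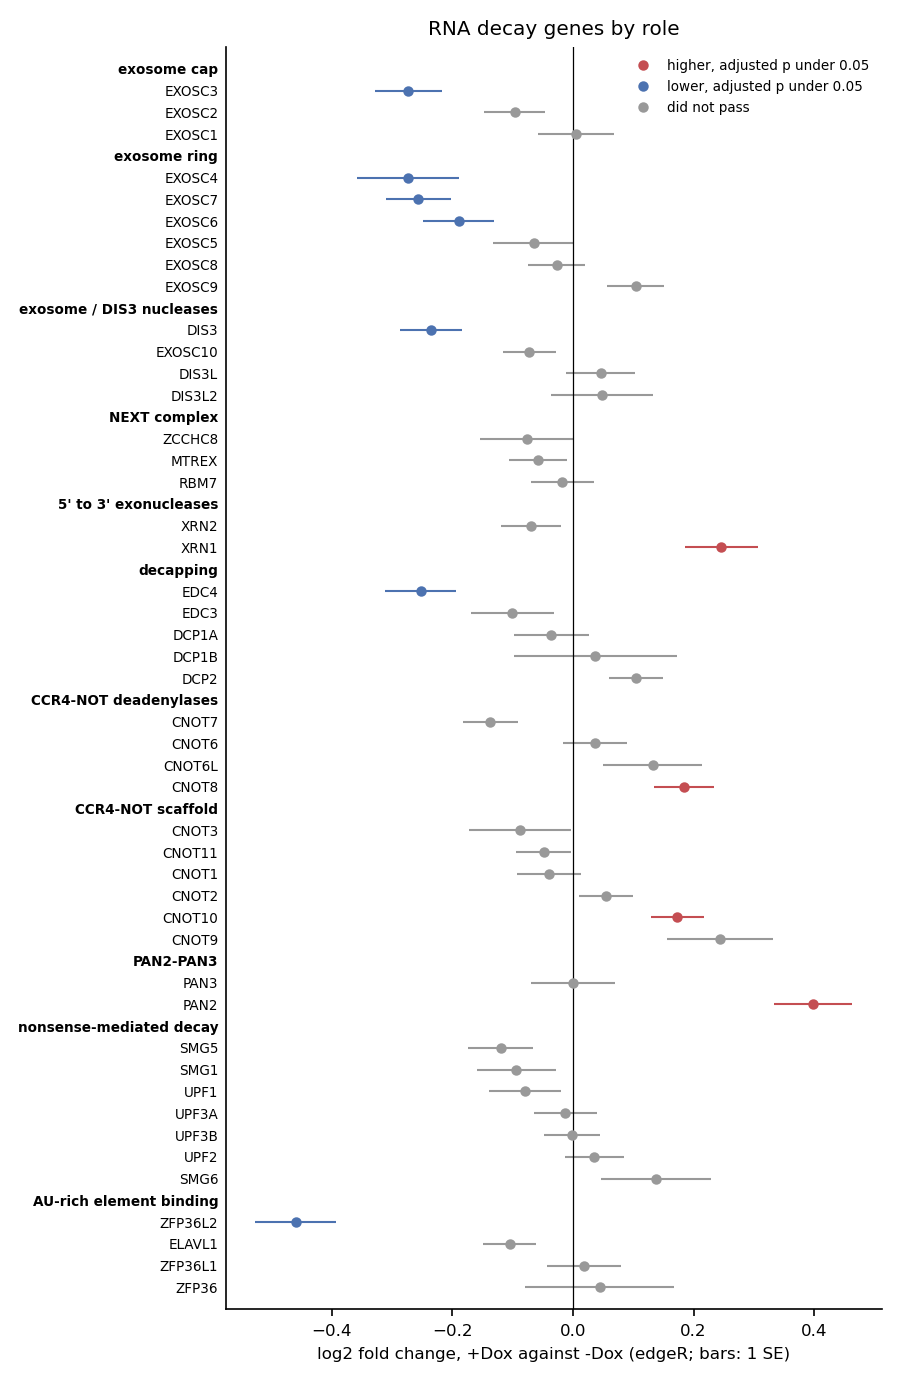
The plot gives the log2 fold change of each of the 46 genes (+Dox against −Dox, edgeR), with bars of 1 SE, grouped by role and colored by call. Of the 9 subunits of the exosome cap and ring, 4 were called lower (12.9% of genes at or above 4.81 CPM) and 0 higher. Values run from -0.46 for ZFP36L2 to 0.40 for PAN2.

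The number of calls depended on single libraries and on how counts were made. It was 7 without −Dox replicate 2, 5 without −Dox replicate 3 and 6 without +Dox replicate 3, where 10.7%, 11.2% and 10.8% of all genes tested were called. With an offset for average transcript length it was 4, all of them lower (DIS3, EXOSC3, EXOSC7 and ZFP36L2), beside 8.94% of all genes, and the genes that rose were no longer called.

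The exosome is a barrel of 9 subunits without catalytic activity of their own. EXOSC1, EXOSC2 and EXOSC3 form the cap, where RNA enters, and EXOSC4 to EXOSC9 form the ring below it. EXOSC3, EXOSC4, EXOSC6 and EXOSC7 fell, where 7.68% of all genes tested and 12.9% of those at or above 4.81 CPM were called lower. The other 5 subunits did not pass the test.

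Of the 9 subunits, only EXOSC3 and EXOSC7 were called lower in the reported test and in all 14 alternatives. The sequence before their start sites is shown for that reason. The stretches are the 250 bases before the RefSeq start in GRCh38.p14, chr9:37785093-37785342 on the minus strand for EXOSC3 and chr3:44975994-44976243 on the plus strand for EXOSC7. Capitals mark the GC box GGGCGG on either strand, a motif known to be bound by SP1-type factors.
EXOSC3: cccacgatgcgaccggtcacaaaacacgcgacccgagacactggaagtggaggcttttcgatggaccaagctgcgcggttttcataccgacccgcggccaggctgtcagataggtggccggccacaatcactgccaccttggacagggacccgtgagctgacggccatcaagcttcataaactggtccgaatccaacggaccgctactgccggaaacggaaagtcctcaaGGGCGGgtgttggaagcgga
EXOSC7: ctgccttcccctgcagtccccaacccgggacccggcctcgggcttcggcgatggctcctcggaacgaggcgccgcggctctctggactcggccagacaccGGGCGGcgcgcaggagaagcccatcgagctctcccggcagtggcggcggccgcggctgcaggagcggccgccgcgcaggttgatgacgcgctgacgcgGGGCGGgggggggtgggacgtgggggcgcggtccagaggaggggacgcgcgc
Of the 46 members, 40 had an entry in the RefSeq promoter table. The GC box was in 30 of these 40 windows (75%), in 4 of the 5 called lower that had an entry (EXOSC3, EXOSC7, DIS3 and EDC4), in 1 of the 4 called higher (XRN1) and in 42.3% of all 27305 promoters of that length. The CCAAT box (CCAAT, either strand) was in 18 of 40 members and 33% of all promoters, and the ETS motif CCGGAAG in 6 of 40 and 8.82%. These matches are a description of the letters in the windows.

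EXOSC3, which carries RNA-binding domains of the cap, had 86.2, 97.2 and 87.0 CPM in −Dox and 75.5, 73.0 and 75.4 CPM in +Dox. Every +Dox value lay below every −Dox value, and the log2 fold change was -0.27 ± 0.06 (SE, adjusted p = 0.00485). EXOSC7, a ring subunit, had 98.1, 101.5 and 100.1 CPM in −Dox and 90.03, 80.8 and 80.02 CPM in +Dox, a log2 fold change of -0.26 ± 0.05 with an adjusted p of 0.00621. The groups again did not overlap, with +Dox replicate 1 closest to the −Dox values.

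EXOSC6, a ring subunit encoded by a single annotated transcript, had 37.9, 36.6 and 41.7 CPM in −Dox and 33.8, 34.4 and 33.6 CPM in +Dox. Its fall of 0.19 on the log2 scale passed narrowly (adjusted p = 0.0463). EXOSC4, another ring subunit, had 30.7, 39.3 and 39.5 CPM in −Dox and 31.2, 30.1 and 29.3 CPM in +Dox, so −Dox replicate 1 lay among the +Dox values. Its log2 fold change was -0.27 ± 0.09 (adjusted p = 0.0454), and without −Dox replicate 1 it was -0.39 (adjusted p = 0.000630). EXOSC4 and EXOSC6 both lost the call without −Dox replicate 3, without any one +Dox replicate and with the length offset. A block on replicate number also ended both calls (adjusted p of 0.0659 and 0.0929). EXOSC4 lost its call without −Dox replicate 2 as well.

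The other subunits showed smaller differences. EXOSC2 had a log2 fold change of -0.10, EXOSC5 of -0.07, EXOSC8 of -0.03 and EXOSC1 of 0.01, with adjusted p from 0.226 for EXOSC2 to 0.971 for EXOSC1. EXOSC9 was the one subunit whose +Dox values all lay above the −Dox values. It measured 133.5, 136.9 and 128.4 CPM without Dox and 141.7, 139.1 and 147.9 CPM with Dox, but the difference did not pass the test (log2 fold change 0.10 ± 0.05, adjusted p = 0.169).

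Levels of the subunits per transcript length (TPM) were unequal, although the barrel holds each protein once. In −Dox EXOSC3 stood at 117.2 ± 7.05 TPM (SD, n = 3) and EXOSC7 at 107.9 ± 1.73 TPM, whereas EXOSC6 stood at 7.61 ± 0.63 TPM, the lowest of the 9 and with no overlap with any other subunit. EXOSC9 (84.9 ± 2.14 TPM) and EXOSC8 (72.6 ± 2.85 TPM) followed EXOSC7. EXOSC4 (54.2 ± 5.48 TPM) and EXOSC1 (50.6 ± 0.95 TPM) did not differ beyond their spread. These levels sum all transcripts of a gene. On coding transcripts alone, EXOSC7 stood highest in −Dox at 87.0 ± 4.8 TPM (SD, n = 3). EXOSC9 (72.6 ± 2.1 TPM) and EXOSC3 (68.3 ± 6.0 TPM) overlapped there.

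**Figure D2:**
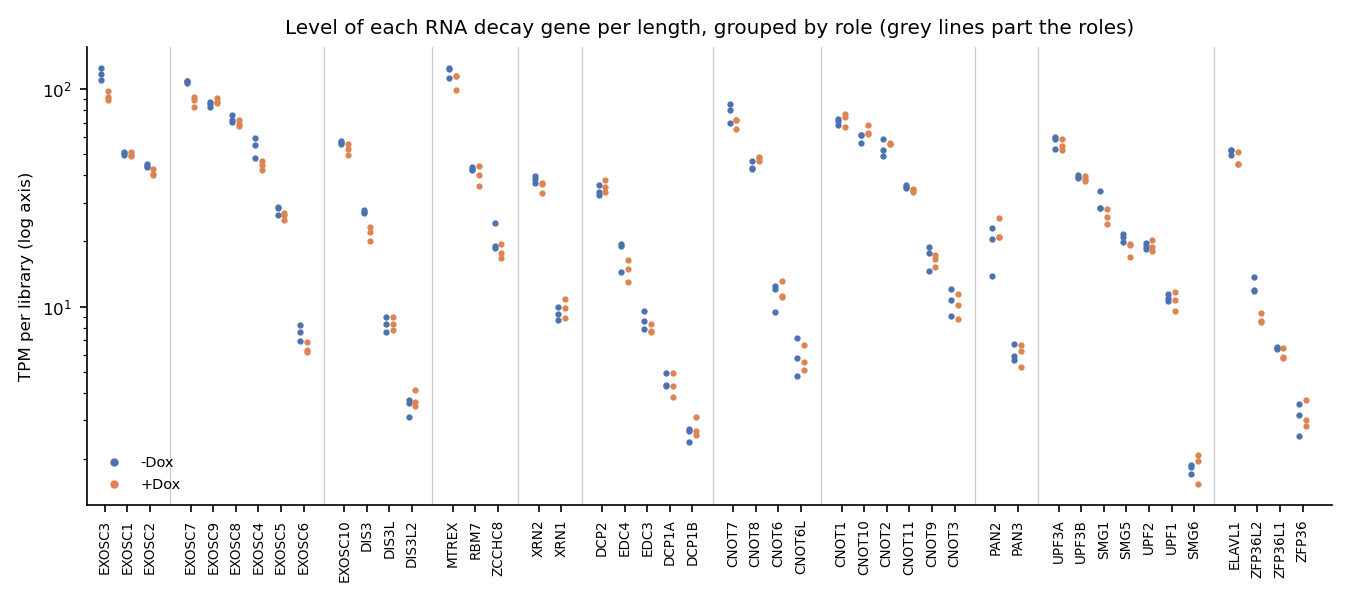
Each point is the TPM of a gene in 1 library (log axis), −Dox to the left and +Dox to the right, with genes ordered by level within each role. Summed over all transcripts of a gene, coding or not, MTREX and EXOSC3 are the most abundant of the 46 genes and SMG6 the least. On average over the 6 libraries, 12 of the 46 genes lie under 10 TPM.

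DIS3, the main nuclease of the nuclear exosome, fell. Its CPM was 110.0, 108.1 and 104.8 in −Dox and 86.2, 92.9 and 95.1 in +Dox, with no overlap (log2 fold change -0.24 ± 0.05, adjusted p = 0.00709). DIS3L, the related nuclease of the cytoplasmic exosome, and DIS3L2, which works without the exosome on uridylated RNA, both stood 0.05 higher on the log2 scale in +Dox without passing (adjusted p of 0.665 and 0.772). The TPM of DIS3 divided by that of DIS3L was accordingly 3.10, 3.24 and 3.50 in −Dox and 2.55, 2.59 and 2.63 in +Dox. EXOSC10, the second nuclear exosome nuclease, had 131.6, 129.6 and 128.3 CPM in −Dox and 125.5, 123.7 and 121.2 CPM in +Dox, a difference of -0.07 on the log2 scale that did not pass (adjusted p = 0.306) although the groups did not overlap.

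A transcript annotated as a target of NMD, DIS3-204, held 43.9% of DIS3 TPM. It skips an exon of 85 bases (chr13:72770904-72770988, minus strand, GRCh38), a length that is not a multiple of 3, and meets a stop codon 7 bases into the next exon. The exon is shown in capitals between 40 intron bases on each side, and then the junction made by skipping it, chr13:72768903-72771100, with its stop codon in capitals.
DIS3 exon: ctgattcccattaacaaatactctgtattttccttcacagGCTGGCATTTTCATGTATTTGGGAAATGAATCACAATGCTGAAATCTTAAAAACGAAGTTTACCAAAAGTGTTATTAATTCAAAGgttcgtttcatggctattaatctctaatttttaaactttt
DIS3-204 junction: ttaaaatgtgacgtggacaggcatctcTGA
DIS3-204 was listed at 11.6, 12.4 and 13.4 TPM in −Dox and at 8.07, 9.91 and 9.33 TPM in +Dox, with no overlap. The coding transcript of 5232 bases was at 6.81, 6.42 and 7.04 TPM in −Dox and 6.11, 6.51 and 6.38 TPM in +Dox, where the groups overlap. DIS3-205, also coding, was at 8.22, 7.21 and 5.40 TPM in −Dox and 4.93, 5.71 and 5.21 TPM in +Dox, and −Dox replicate 3 lay among the +Dox values. When only counts of transcripts annotated as protein-coding were summed, an alternative chosen after seeing the data, the log2 fold change of DIS3 was -0.16 and no longer passed (adjusted p = 0.0936, where 20.5% of genes were called).

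Inclusion of the 85-base exon, as the share of DIS3 TPM on transcripts that hold it, was 58.2%, 54.1% and 49.98% in −Dox and 59.6%, 57.2% and 57.4% in +Dox. The groups overlap, and the difference of 3.98 percentage points did not pass an exact two-sided permutation test (p = 0.3, where 3 against 3 libraries cannot go below 0.1). An exon of 158 bases (chr13:72780846-72781003) was included at 54.7%, 52.9% and 43.4% in −Dox and 44.7%, 46.7% and 45.0% in +Dox between the same neighbours (p = 0.4, exact permutation test). Over all transcripts that span it, the values were 75.5%, 76.2% and 73.8% in −Dox and 69.5%, 71.9% and 70.9% in +Dox, which do not overlap (difference -4.44 percentage points, exact permutation p = 0.1, the smallest possible). An exon of 68 bases (chr13:72781289-72781356) was included at 33.8% ± 6.04 in −Dox and 34.5% ± 0.96 in +Dox (SD, n = 3, p = 0.9, exact permutation test). Over all transcripts that span it, these values were 50.3% ± 3.88 and 53.6% ± 1.34, a difference of 3.36 percentage points (exact permutation p = 0.3). Measured between the same neighbours, −Dox replicate 3 stood lowest for each of the 3 exons, and without it the differences were 1.92, -8.33 and -2.60 percentage points for the exons of 85, 158 and 68 bases. Without −Dox replicate 1 they were 6.03, -2.71 and 3.35 percentage points. These shares come from whole transcripts whose annotated ends differ, from 2934 bases for DIS3-204 to 10571 for DIS3-201, and not from junction reads.

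**Figure D3:**
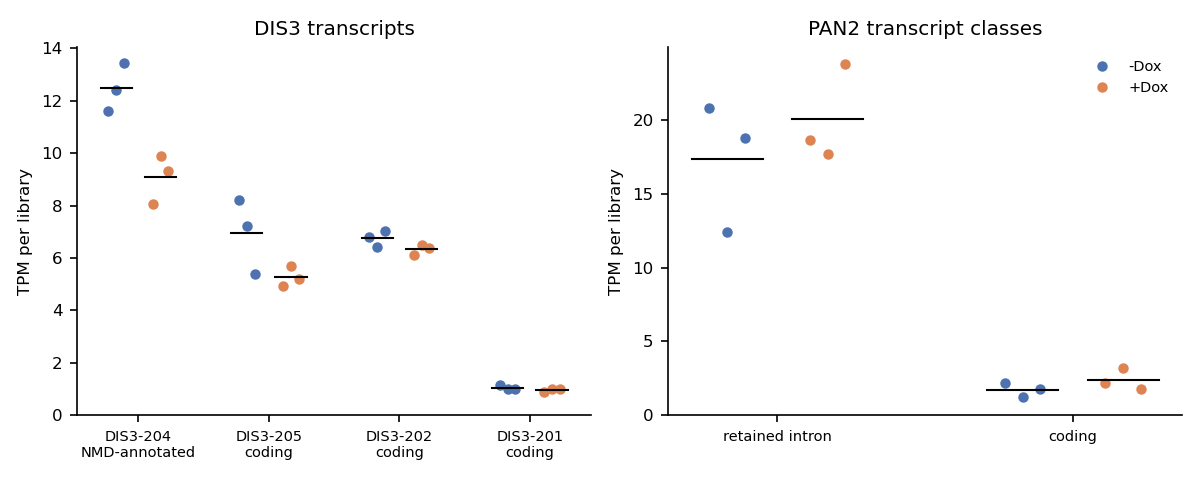
The left panel gives the TPM of 4 DIS3 transcripts in each library and the right panel the TPM of coding and retained-intron transcripts of PAN2, with bars at the group means. DIS3-204 is lower in each +Dox library than in any −Dox library, and retained-intron transcripts hold most of the PAN2 signal in each library.

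The NEXT complex delivers nuclear transcripts to the exosome through MTREX, an RNA helicase, ZCCHC8, a scaffold, and RBM7, an RNA-binding protein. None of the 3 passed edgeR's test, 0 at an unadjusted p under 0.05, and none did in DESeq2. MTREX had the highest mean TPM of all 46 genes over the 6 libraries, although EXOSC3 exceeded it in −Dox replicates 2 and 3, and stood at 120.3 ± 7.21 TPM in −Dox and 109.4 ± 8.86 TPM in +Dox, with a log2 fold change in CPM of -0.06 (adjusted p = 0.470). ZCCHC8 had a log2 fold change of -0.08 and RBM7 of -0.02. Of the RNA of RBM7, 49.6% of TPM lay on transcripts annotated as NMD targets, and of that of MTREX 24.8%. Coding transcripts held 45.0% of MTREX TPM.

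Of the 5′ to 3′ exonucleases XRN1 rose and XRN2 did not pass the test. XRN1, the cytoplasmic enzyme, had 74.1, 67.1 and 69.5 CPM in −Dox and 76.4, 87.7 and 85.9 CPM in +Dox. All +Dox values lay above all −Dox values, with +Dox replicate 1 only slightly so (log2 fold change 0.25 ± 0.06, adjusted p = 0.0157). XRN2, the nuclear enzyme that ends transcription by RNA polymerase II, had 134.8, 130.4 and 131.6 CPM in −Dox and 119.5, 125.5 and 133.1 CPM in +Dox, which overlap (adjusted p = 0.403). The call on XRN1 was lost without any one of −Dox replicates 2 and 3 and +Dox replicates 2 and 3 (adjusted p from 0.0600 to 0.0730) and with the length offset (0.12, adjusted p = 0.328).

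Among decapping factors only EDC4 passed the test. EDC4, a scaffold that holds DCP1 and DCP2 together, had 52.8, 54.9 and 60.6 CPM in −Dox and 48.0, 46.9 and 46.3 CPM in +Dox, a log2 fold change of -0.25 ± 0.06 with an adjusted p of 0.0108. Its groups do not overlap, yet 58.4% of its TPM lay on retained-intron transcripts, and over protein-coding transcripts alone the change was -0.18 (adjusted p = 0.304). EDC4 also missed the threshold without −Dox replicate 3 (adjusted p = 0.0528), without +Dox replicate 3 (0.0519) and with the length offset (0.334). DCP2, the catalytic subunit, had 236.1, 230.4 and 222.9 CPM in −Dox and 238.3, 252.2 and 250.5 CPM in +Dox, a difference of 0.10 ± 0.05 that did not pass (adjusted p = 0.150). DCP1A and DCP1B, its paralogous activators, had log2 fold changes of -0.04 and 0.04, and EDC3, another enhancer of decapping, of -0.10. Per length, DCP2 (34.1 ± 1.90 TPM in −Dox) stood far above DCP1A (4.54 ± 0.35 TPM) and DCP1B (2.60 ± 0.19 TPM).

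CCR4-NOT holds 2 kinds of deadenylase, CNOT7 or CNOT8 and CNOT6 or CNOT6L, on the scaffold CNOT1. Of its 10 measured genes CNOT8 and CNOT10 rose and none fell, a share of 20% where 25.6% of genes at or above 4.81 CPM were called. CNOT8 had 90.1, 83.1 and 83.6 CPM in −Dox and 98.3, 94.3 and 99.2 CPM in +Dox, without overlap (log2 fold change 0.18 ± 0.05, adjusted p = 0.0250). Its paralog CNOT7 had 163.7, 167.2 and 168.6 CPM in −Dox and 149.2, 147.2 and 157.9 CPM in +Dox, without overlap in the other direction, but did not pass (log2 fold change -0.14 ± 0.05, adjusted p = 0.0622). CNOT7 did pass in 4 of the 14 alternatives, DESeq2 among them (adjusted p = 0.0179). The TPM of CNOT7 divided by that of CNOT8 was 1.504, 1.999 and 1.85 in −Dox and 1.35, 1.49 and 1.54 in +Dox, so the ratio overlapped between groups. FAXDC2, on the opposite strand next to CNOT8, covers 4.15% of the exon bases of CNOT8 and rose from 23.9 to 99.1 CPM, and because the strand setting is not given, its part in the CNOT8 counts was not tested. The call on CNOT8 was lost without −Dox replicate 2 or 3, without +Dox replicate 1 or 3 and with the length offset (adjusted p from 0.0758 to 0.120). A block on replicate number ended it too (adjusted p = 0.0634).

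CNOT10, which forms with CNOT11 a module on the scaffold, had 127.8, 128.7 and 125.8 CPM in −Dox and 140.8, 142.9 and 147.1 CPM in +Dox. The groups did not overlap (log2 fold change 0.17 ± 0.04, adjusted p = 0.0176). However, the call was lost without −Dox replicate 2 or 3 or +Dox replicate 3 (adjusted p from 0.0588 to 0.0683). It was also lost with the length offset (0.110) and with a block on replicate number (0.0784). CNOT11 itself had 71.6, 72.2 and 71.0 CPM in −Dox and 69.0, 69.1 and 69.5 CPM in +Dox, a difference of -0.05 that did not pass (adjusted p = 0.542). CNOT9, which binds TNRC6 silencing proteins, had a log2 difference of 0.24 ± 0.09 that did not pass (adjusted p = 0.0810) and was -0.02 with the length offset. It passed with DESeq2 (0.0497), with no filter on low counts (0.00770) and without −Dox replicate 1 (0.0100). CNOT1, CNOT2 and CNOT3 had log2 fold changes of -0.04, 0.06 and -0.09, and CNOT6 and CNOT6L of 0.04 and 0.13. Among the deadenylases per length, CNOT7 (78.5 ± 7.94 TPM in −Dox) was the highest, followed by CNOT8 (44.2 ± 1.98), CNOT6 (11.3 ± 1.61) and CNOT6L (5.92 ± 1.17).

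PAN2, the catalytic subunit of the other deadenylase, showed the largest rise of the 46 genes. It had 32.3, 27.2 and 28.9 CPM in −Dox and 38.1, 39.3 and 39.1 CPM in +Dox, without overlap (log2 fold change 0.40 ± 0.07, adjusted p = 0.00135). PAN3, its RNA-binding partner, had 30.1 ± 1.65 CPM in −Dox and 30.1 ± 2.49 CPM in +Dox (SD, n = 3, adjusted p = 0.9997). Most of the PAN2 signal was not on coding transcripts: retained-intron transcripts held 89.9% of its TPM and coding transcripts 9.9%. Retained-intron transcripts of PAN2 summed to 20.9, 12.4 and 18.8 TPM in −Dox and 18.7, 17.7 and 23.8 TPM in +Dox, and coding ones to 2.19, 1.20 and 1.76 TPM in −Dox and 2.19, 3.16 and 1.73 TPM in +Dox, and both overlap between groups. Over protein-coding transcripts alone the log2 fold change was 0.47 (adjusted p = 0.165), and with the length offset it was 0.27 (adjusted p = 0.338). Leaving out any one library kept the call. CNPY2-AS1, on the opposite strand, covers 19.5% of the exon bases of PAN2 and had 3.23 CPM in −Dox and 3.88 CPM in +Dox (group means).

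**Figure D4:**
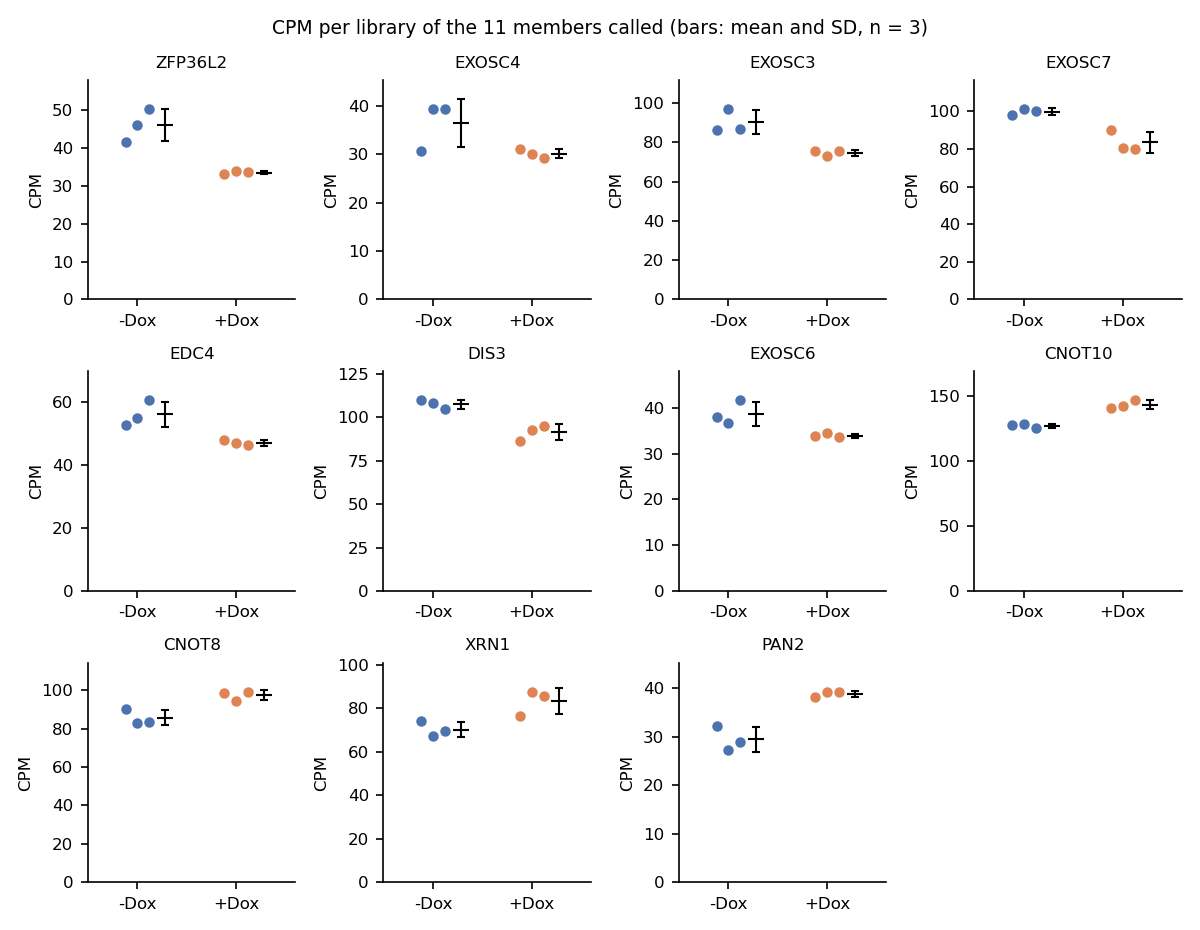
Points are the CPM of the 11 called genes in each library, with the mean and SD beside them (n = 3 per group, each axis from 0). For EXOSC4 a single −Dox library lies among the +Dox libraries.

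NMD is driven by the helicase UPF1, its partners UPF2, UPF3A and UPF3B, the kinase SMG1 and the effectors SMG5 and SMG6. None of the 7 genes passed edgeR's test (1, SMG5, at an unadjusted p under 0.05) or DESeq2, and their log2 fold changes ran from -0.12 (SMG5, adjusted p = 0.158) to 0.14 (SMG6, adjusted p = 0.360). UPF3B was almost level, with 86.9 ± 2.15 CPM for −Dox and 86.8 ± 1.80 CPM for +Dox libraries (SD, n = 3), and its paralog UPF3A had a log2 fold change of -0.01. UPF1 had 53.3 ± 4.04 CPM in −Dox and 50.4 ± 1.101 CPM in +Dox. SMG6, an endonuclease, was the least abundant of the 46 genes, at 1.80 ± 0.09 TPM in −Dox, where UPF3A stood at 57.2 ± 3.79 TPM. Coding transcripts held 37.9% of UPF3A TPM in −Dox. They summed to 21.7 ± 2.3 TPM, below the 39.1 ± 0.67 TPM of UPF3B coding transcripts (SD, n = 3).

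ZFP36, ZFP36L1 and ZFP36L2 are zinc finger proteins that bind AU-rich elements and recruit CCR4-NOT, while ELAVL1 binds such elements and stabilizes mRNA. ZFP36L2 showed the largest fall of the 46 genes. It had 41.8, 46.2 and 50.5 CPM in −Dox and 33.2, 33.9 and 33.6 CPM in +Dox, and the +Dox values lay close together below all −Dox values (log2 fold change -0.46 ± 0.07, adjusted p = 0.000562). The call held in all 14 alternatives, with a change from -0.53 to -0.39. ZFP36 and ZFP36L1 had log2 fold changes of 0.04 (adjusted p = 0.867) and 0.02 (adjusted p = 0.895). The TPM of ZFP36L2 divided by that of ZFP36L1 was 1.82, 1.82 and 2.13 in −Dox and 1.44, 1.46 and 1.48 in +Dox. ELAVL1 had 110.3, 112.3 and 115.7 CPM in −Dox and 104.3, 104.8 and 105.4 CPM in +Dox, and this difference of -0.11 ± 0.04 did not pass (adjusted p = 0.137) although the groups did not overlap.

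Transcript usage was compared as the log2 ratio of each transcript's TPM to that of the other transcripts of its gene, with limma. Of 341 transcripts of 43 members tested, 0 passed an adjusted p under 0.05 with a change in share above 5 percentage points, a limit that 0.0582% of all 75632 transcripts passed. At an unadjusted p under 0.05 there were 23 (6.75%), beside 6.72% of all transcripts. The smallest adjusted p was 0.0681, for EXOSC2-228, an NMD-annotated transcript listed at 0 in each −Dox library and at 0.28, 0.38 and 0.48 TPM in +Dox. CNOT6L-201, a coding transcript of that deadenylase, had 28.3% ± 4.78 of CNOT6L TPM in −Dox and 56.3% ± 12.6 in +Dox (SD, n = 3), at 1.83, 1.64 and 1.47 TPM in −Dox and 3.50, 2.89 and 3.17 TPM in +Dox, which did not pass (adjusted p = 0.610). The others of the 6 smallest p, EXOSC8-218, EDC4-207, EXOSC1-208 and CNOT8-213, all had lower shares in +Dox, with adjusted p from 0.255 to 0.631.

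Other factors of these pathways, 61 genes outside the 46, gave 3 calls higher and 10 lower (21.3%). Of all genes tested 15.8% were called, and of those at or above 4.81 CPM 25.6%. Of 12 exosome cofactors, SKIC3, a subunit of the cytoplasmic SKI complex, rose by 0.25 on the log2 scale, and TENT4A, a poly(A) polymerase that tags RNA for the exosome, and MPHOSPH6 fell, with log2 fold changes of -0.23 and -0.21. Of 14 decapping cofactors, LSM6 and LSM7, subunits of the LSM ring, fell (-0.25 and -0.24) and DCPS, which clears cap remnants, had 0.14 without passing. Of 14 deadenylation cofactors, BTG2 and TNRC6B, which engage CCR4-NOT, rose (0.45 and 0.26) and PABPC4, a poly(A)-binding protein, and TOB1 fell (-0.18 and -0.27). Of 11 NMD cofactors, EIF4A3 and MAGOH of the exon junction complex and DHX34 fell (-0.27, -0.24 and -0.19). Of 10 other proteins that bind AU-rich elements or stem-loops, ZC3H12C, a relative of the nuclease Regnase-1, fell by 0.72 on the log2 scale, with 22.2, 20.5 and 22.7 CPM for −Dox libraries and 11.3, 14.1 and 14.1 CPM for +Dox libraries, and TIA1 (0.12) and KHSRP (-0.13) did not pass. Of these 13 calls, SKIC3, BTG2, EIF4A3 and ZC3H12C held in all 14 alternatives. MPHOSPH6 was called in 11, TENT4A in 10, PABPC4 and MAGOH in 9 each, LSM7 in 8, LSM6 in 7 and DHX34 in 6. TOB1 lost its call without +Dox replicate 2 or 3, without −Dox replicate 2 and with the length offset. TNRC6B lost its call without +Dox replicate 2 or without −Dox replicate 3. The 10 calls lower became 4 without −Dox replicate 2, 4 without −Dox replicate 3, 6 without +Dox replicate 2 and 2 without +Dox replicate 3. They became 5 with a block on replicate number. With the length offset they became 3, and PABPC4 stood at -0.07 (adjusted p = 0.544).

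Known substrates were followed beside the factors. Of 16 genes whose mRNAs hold AU-rich elements, 14 were tested (TNF and CSF2 had too few counts), 10 fell and 1, JUN, rose, with a median log2 fold change of -0.73. Over all genes tested 7.68% fell and 8.16% rose, and the list was drawn up with earlier results of these data known. PIM1, a kinase gene, fell from 336.9 to 206.2 CPM, MYC from 150.5 to 93.3 CPM and IL6 from 3.43 to 0.74 CPM. Of 10 RNAs known to be cleared by NMD, 3 fell, ATF3 (-0.89), ATF4 (-0.24) and SNHG12 (-0.24), none rose, and the median was -0.10. Of the 3, ATF3 held its call in all 14 alternatives, whereas ATF4 and SNHG12 lost it without +Dox replicate 3 and with the length offset, ATF4 also without −Dox replicate 1 or 3 or +Dox replicate 1 or 2 and SNHG12 without −Dox replicate 2. The calls lower among mRNAs with AU-rich elements numbered 8 to 10 in the 14 alternatives, and the call on JUN was lost without −Dox replicate 3 (adjusted p = 0.0531). These genes are also controlled by transcription, which was not measured apart from mRNA level.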

How the data were processed

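PolyA RNA of 6 K562 libraries was sequenced by the authors as paired-end reads and quantified with Salmon 1.10.2. Per the labels the build was hg38, and the index, strand and bias settings are not given in the sources used here. The authors deposited, per transcript, an estimated count (not normalized) and a TPM value scaled for effective length, without pooling.

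Transcripts were matched to GENCODE 44 (433 of 252045 unmatched), and estimated counts were summed per gene and rounded. Genes with a mean count above 10 were fitted over all 6 libraries with edgeR 4.0.16 (TMM, glmQLFit, glmQLFTest, two-sided, Benjamini-Hochberg) in R 4.3.3. CPM are TMM-normalized. Transcript usage was fitted with limma 3.58.1 (pseudocount 0.1 TPM). Each ± after a fold change is 1 SE. Alternatives were DESeq2 1.42.0, RLE factors, 3 count filters, a length offset, each library left out, a replicate block and protein-coding transcripts only. Steps were tested on simulated data. Members and gene lists were chosen with earlier results of these data known. Named genes were PCBP1, up to 6 called members per direction, the most and least abundant of each role, named paralogs and up to 3 genes per list by p. CNOT2, CNOT9, CNOT11, EDC3, EXOSC1, EXOSC5, EXOSC8, EXOSC9, RBM7, SMG5, UPF1, FAXDC2, CNPY2-AS1, TOB1 and JUN were named after their values were seen. Some marker genes are not reported here.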

Additional observations from a re-analysis of the deposited data

How the results depend on the processing

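PCBP1 was higher in all 14 alternatives (log2 fold change 1.90 to 1.98). The 11 calls among the 46 genes became 4 with the length offset (0 higher, 4 lower, with 8.94% of all genes called). Leaving out 1 library in turn gave 5 to 12 calls, 1 to 5 higher and 4 to 7 lower. DESeq2 gave 13 calls (18.7% of all genes), the coding-only sum 9 (20.5%) and the block on replicate number 8 (3 higher, 5 lower, 11.8%). The block ended the calls of EXOSC4, EXOSC6, CNOT8 and CNOT10 (adjusted p of 0.0659, 0.0929, 0.0634 and 0.0784) and called CNOT9 (0.0355). Deviations of same-numbered libraries correlated at 0.008, -0.06 and -0.003, and those of differently numbered ones at -0.073 to 0.076. These values show no pairing by replicate number but cannot exclude one. Of 154 alternative values of the 11 called genes, 118 kept their call and 36 kept their direction only, and none changed sign. Transcript usage gave 0 calls among members in all 11 alternatives, the block included (14 at an unadjusted p under 0.05), and with estimated counts 1 transcript passed the adjusted p but not the limit on shares.

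Among genes that were not called, 2 (CNOT7 and CNOT9) passed in 8 alternative values, and 14 changed sign under some setting. With the length offset CNOT1 was 0.069, CNOT6L -0.008, CNOT9 -0.021, PAN3 0.026, UPF3B 0.005 and ZFP36L1 -0.066 on the log2 scale. With coding transcripts only DCP1B was -0.013, EXOSC2 0.047, RBM7 0.085 and UPF3A 0.088. EXOSC1 was -0.003 with DESeq2, with RLE factors and with a summed count above 10, and -0.001 where each library had to reach 10 counts. With 1 library left out the values ran from -0.084 to 0.015 for CNOT1, -0.064 to 0.005 for DCP1A, -0.094 to 0.16 for DCP1B, -0.053 to 0.044 for EXOSC1, -0.05 to 0.064 for PAN3, -0.043 to 0.024 for RBM7, -0.051 to 0.012 for UPF3A, -0.024 to 0.014 for UPF3B, -0.151 to 0.031 for ZCCHC8, -0.01 to 0.148 for ZFP36 and -0.016 to 0.05 for ZFP36L1. Inclusion of the 68-base exon of DIS3 differed by -0.215 percentage points with estimated counts and by -2.602 to 3.35 with 1 library left out. The causes were not tested.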
